A study of Homo sapiens with 58 samples.

Results

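The 127 genes described here each carry 20 or more HuR peaks in the 3'UTR, the untranslated stretch of a messenger RNA (mRNA) after the stop codon. Peaks annotated to a 3'UTR in the deposited table were counted per gene name after repeated lines had been dropped, and genes with at least 20 were kept. These 127 of 7619 genes with a 3'UTR peak (1.67%) held 3124 of 37614 3'UTR peaks (8.31%). The members were chosen by the number of peaks called on the combined libraries, so the rule itself uses no difference between groups, although a gene with more tags had more chance to enter. Genes with exactly 20 peaks numbered 22, with 543 to 3318 tags each over all libraries (median 1022.5), and genes with exactly 19 numbered 33, with 223 to 5942 tags (median 735).

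HuR, the protein of the gene ELAVL1, binds stretches rich in U and AU in introns and 3'UTRs. It is mostly nuclear at rest, takes part in splicing in the nucleus, and shuttles to the cytoplasm, where it is known for stabilising mRNAs and changing their translation. Arsenite causes oxidative stress that blocks translation initiation and gathers untranslated mRNAs and proteins such as G3BP1 into stress granules. A long 3'UTR can be shortened by use of an upstream polyadenylation site and can overlap an intron of another isoform, so its peaks need not all lie on one RNA.

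All 58 libraries come from Huh-7.5, a human hepatocellular carcinoma line, in 16 groups, and hold RNA crosslinked to HuR with UV light of 254 nm (400 and then 200 mJ/cm2) and immunoprecipitated with a HuR antibody (CLIP-seq). The main comparisons use unmodified (WT) cells without the APEX reaction, split by a published protocol into nuclear and cytoplasmic fractions after mock treatment or 0.5 mM sodium arsenite for 45 min, with 3 libraries in each of the 4 groups. The other 46 libraries come from lines expressing APEX, an ascorbate peroxidase that tags nearby molecules with biotin, directed to the nucleus (APEX-NLS), to the cytoplasm (APEX-NES) or fused to the stress granule protein (APEX-G3BP1). Mock and arsenite cells of these lines received 0.5 mM biotin phenol for 30 min and 1 mM H2O2 for 1 min. Their input libraries had the HuR precipitation alone (2 per treatment for APEX-NLS and APEX-NES, 4 mock and 5 arsenite for APEX-G3BP1), and their enriched libraries a streptavidin capture as well (4 per treatment for APEX-NLS and APEX-NES, 6 mock and 7 arsenite for APEX-G3BP1). The labels do not say whether libraries of a group came from separate cultures, so p-values measure the spread between these libraries, which may be technical. All 12 fraction libraries belong to one library set.

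A value in the table is the number of tags in a peak divided by a total of its library, so levels are given as CPM, the count of tags for every 1000000 tags of that total. The 12 fraction libraries held 2782 to 17306 tags in the members' peaks, the 29 enriched libraries 11 to 2141 and the 17 input libraries 22 to 14045. As a check of the labels, the noncoding RNA genes SNHG1, GAS5 and NEAT1 were higher in the mock nuclear than in the mock cytoplasmic fraction (SNHG1 480 against 40.8 CPM, GAS5 494 against 46.7, NEAT1 413 against 125), while the nuclear-retained MALAT1 was at 2561 and 2394 CPM. The hepatocyte genes AFP and ALB had tags, and APOA1 and TTR were at 0. The samples are pools of cells, so more tags from an RNA in every cell and tags from more cells cannot be told apart, nor can HuR binding and the amount of the RNA.

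The 3'UTR label of these genes needs care, because many of the peaks are far apart. A member's peaks spanned 2599 to 349818 nt (median 13681 nt), and the peaks of 41 members spanned over 30000 nt. NFIA, a transcription factor of the nuclear factor I family, had the widest span. Of the 3124 peaks, 1617 carried only the 3'UTR label, 1401 (44.8%) also an intron label, against 40.9% of all 3'UTR peaks, and 106 another second label. No peak of 34 members and every peak of 33 members had the intron label. By RefSeq gene coordinates, 72.7% of the peaks lay within 10000 nt of the gene's 3' end, made up of 85.4% of the peaks with only the 3'UTR label and 58.6% of those with an intron label. Of the same 3124 peaks, 236 in 20 members lay within another RefSeq gene, whose strand was not compared. They include 20 of 21 peaks of ZC3H11A within ZBED6 and all 27 of ATL3 within a noncoding RNA gene. Tags of such genes cannot be told apart there if the genes share a strand.

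ZBTB20, a transcriptional repressor of AFP in liver, had the most peaks, 60 over 33822 nt. Its peaks summed to 183, 182 and 178 CPM in the mock cytoplasmic libraries and to 126, 145 and 111 after arsenite. In the nuclear libraries they summed to 80.1, 91.8 and 85.9 in mock cells and to 82.5, 71.2 and 86.6 after arsenite. Its nuclear levels overlapped between treatments and its cytoplasmic levels did not. Its log2 difference between the mock fractions was -1.06, and 0.89 on the scale of all 3'UTR tags, with limma adjusted p under 0.05 on both. With arsenite it was -0.10 in the nucleus and -0.51 in the cytoplasm, and -0.85 and 0.28 on the scale of 3'UTR tags, where the nuclear value passed and the cytoplasmic value did not.

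The next in number were INTS6, a subunit of the Integrator complex (38 peaks), the ubiquitin ligase ARIH1 (37), the nuclear receptor corepressor LCOR (36) and PTAR1 (36), a prenyltransferase alpha subunit repeat protein. They were followed by the spindle-assembly zinc finger protein ZNF207 (35), the mitochondrial ribosomal protein MRPL42 (33), the hepatic transcription factor ONECUT2 (33), the microtubule adaptor HOOK3 (33) and the osmotic stress transcription factor NFAT5 (32). All 38 INTS6 peaks carried an intron label and none lay within 10000 nt of the gene's 3' end. ONECUT2 had no intron-labelled peak. The mock cytoplasmic mean of these 9 genes ran from 25.4 ± 7.53 CPM (SD, n = 3) for INTS6 to 142 ± 28.1 for MRPL42. Over the 127 members the single highest peak held 8.08% to 59.2% of a gene's tags (median 21.1%), and neighbouring peaks lay a median of 203 nt apart.

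The members together were highest in the mock cytoplasm. Their summed level was 12697, 15734 and 15578 CPM in the mock cytoplasmic libraries, and 4054, 4229 and 4053 in the mock nuclear libraries. After arsenite it was 9175, 9838 and 8724 in the cytoplasm and 7043, 6880 and 6223 in the nucleus. None of the 4 groups overlapped another. The cytoplasmic over nuclear ratio was 3.57 in mock cells and 1.38 after arsenite, the cytoplasmic level after arsenite was 0.630 of the mock level, and the nuclear level 1.63 times the mock level. Each of these 4 contrasts reached a two-sided exact permutation p of 0.1, the smallest that 3 against 3 libraries can give.

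Most of that difference was shared with other 3'UTRs. The members held 10.3% ± 0.437 (SD, n = 3) of all 3'UTR tags in the mock nucleus, 9.22% ± 0.181 in the mock cytoplasm, 9.83% ± 0.195 in the nucleus after arsenite and 10.2% ± 0.121 in the cytoplasm after arsenite. Where the members' tags lay within the genes also differed between the mock fractions. Intron-labelled peaks held 45.7% ± 0.604 of the members' tags in the mock nucleus, 39.1% ± 0.366 in the mock cytoplasm, 40.9% ± 0.245 in the nucleus after arsenite and 38.8% ± 0.161 in the cytoplasm after arsenite. The 3 mock nuclear libraries were above all 9 others, and the exact p against the mock cytoplasm was 0.1, while the exact p for arsenite against mock in the cytoplasm was 0.3. Peaks farther than 10000 nt from the gene's 3' end held 27.0% ± 0.838 of the tags in the mock nucleus against 19.8% ± 0.350 in the mock cytoplasm (exact p = 0.1).

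**Figure D1:**
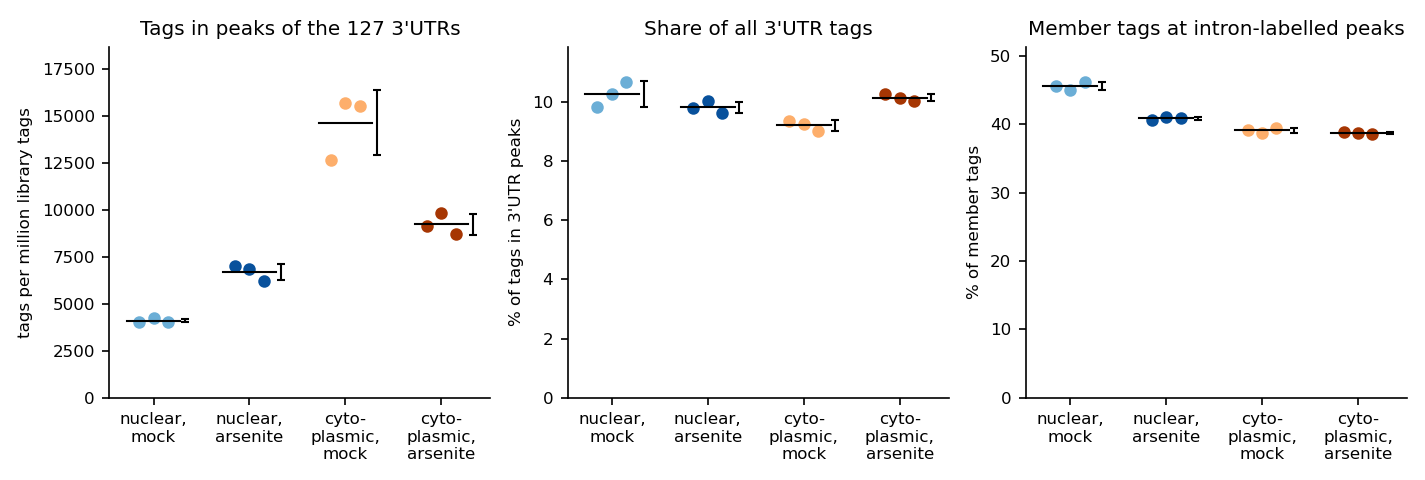
Each point is a fraction library, the line is the mean and the bar the SD of 3 libraries, for the members' summed CPM, their percent of all 3'UTR tags and the percent of their tags at intron-labelled peaks. The mock cytoplasmic libraries, at 12697 to 15734 CPM, lie above the other 3 groups in the left panel, and the mock nuclear libraries lie above the other 3 groups in the right panel.

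The peaks of each gene were then summed and compared between the fractions with limma on log2(CPM + 2.28), with Benjamini-Hochberg adjustment over all genes with 3'UTR peaks. All 127 members passed the filter on low values in each fraction comparison. In mock cells 110 of the 127 sums were lower and 2 higher in the nucleus than in the cytoplasm at an adjusted p under 0.05. Of the 6090 genes tested 57.2% passed, 56.0% lower and 1.17% higher. Scaled to all 3'UTR tags in place of all library tags, the split turned to 37 higher and 17 lower, where 6.37% and 4.5% of all genes passed in those directions (10.9% in all). Of the 112 called sums 60 changed sign on that scale, and 20 of these were called in the opposite direction. The median log2 difference was -1.66 over members and -0.98 over all genes on the first scale, and 0.21 and 0.07 on the second. The members also had more tags than most genes (median 1093 against 64 over all libraries), and the part of this in the share that passed was not tested.

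DDX6, an RNA helicase of P-bodies that represses translation, had 18.9, 30.0 and 23.2 CPM in the mock nuclear libraries. Its cytoplasmic levels were 153, 205 and 199, all above the nuclear ones. Its log2 difference was -2.85 ± 0.21 (SE, limma adjusted p = 1.8e-06). PTBP3, a polypyrimidine tract-binding splicing regulator, had 35.0, 44.5 and 37.7 in the nucleus and 258, 285 and 314 in the cytoplasm (log2 difference -2.80 ± 0.18, adjusted p = 1.07e-06 by limma). The largest difference was at CLIC4, a chloride intracellular channel protein (-2.91 ± 0.29). ITGAV (integrin alpha V), LPGAT1 (a lysophospholipid acyltransferase) and LIN7C (a cell polarity scaffold) differed by -2.81, -2.79 and -2.78. These 6 stayed lower in the nucleus relative to 3'UTR tags, where their log2 differences were -0.87 to -1.12.

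FANCL, the ubiquitin ligase of the Fanconi anaemia core complex, went the other way. It had 37.9, 39.1 and 28 CPM in the mock nuclear libraries and 21.3, 15.3 and 14.8 in the cytoplasmic ones (log2 difference 0.95 ± 0.24, limma adjusted p = 0.00601). NSD2, a histone H3 lysine methyltransferase, had 32.1, 47.3 and 40.6 in the nucleus and 25.5, 26.5 and 25.3 in the cytoplasm (0.57 ± 0.22, limma adjusted p = 0.0391). For both genes the groups did not overlap. A single NSD2 peak, at chr4:1938438-1938457, had a mean of 30.2 of the 40.0 CPM in the nucleus and 5.96 of the 25.8 in the cytoplasm. The other NSD2 peaks together were lower in the nucleus. NSD2's adjusted p rose to as much as 0.169 under the alternative settings.

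After arsenite the difference between the fractions was smaller. Of the 127 sums, 50 were lower and 4 higher in the nucleus. Of 6591 genes 14.1% passed, 12.4% lower and 1.74% higher, and the median log2 difference was -0.37 over members and -0.17 over all genes. On the scale of 3'UTR tags 20 were higher and 19 lower, where 5.83% and 5.46% of all genes passed (11.3% in all). PTBP3 differed most, with 80.9, 70.4 and 44.2 CPM in the nucleus and 206, 216 and 196 in the cytoplasm (-1.67 ± 0.16, limma adjusted p = 3.67e-09). NUCKS1, a chromatin-associated protein, TMEM106B, a lysosomal membrane protein, and SLC30A7, a zinc transporter of the Golgi, differed by -1.27, -1.24 and -1.23. MRPL42 and the APOBEC1 cofactor A1CF differed by -1.19 and -1.17.

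KMT2C, a histone H3 lysine methyltransferase, was higher in the nucleus after arsenite, with 31.2, 36.8 and 26.9 CPM against 12.3, 18.8 and 13.2 in the cytoplasm (1.00 ± 0.21, limma adjusted p = 0.00103). Its groups did not overlap. The other 3 higher sums were NSD2 (0.65), the O-mannose kinase POMK (0.49) and ZC3H11A (0.44), an mRNA export factor. Their adjusted p-values reached 0.111, 0.0897 and 0.239 under other settings. The same single NSD2 peak had a mean of 15.1 of the 32.5 CPM in the nucleus and 1.93 of the 19.8 in the cytoplasm. The count of 54 fell to 24 without arsenite nuclear replicate 3 and to 22 without arsenite cytoplasmic replicate 2.

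In the cytoplasm arsenite lowered 57 of the 127 sums and raised 2. Of 6685 genes 22.4% passed, 21.2% lower and 1.2% higher. The median log2 difference was -0.50 over members and -0.30 over all genes. Scaled to 3'UTR tags, 45 were higher and 19 lower, where 12.3% and 7.03% of all genes passed (19.3% in all). The count of 59 was 31 without mock cytoplasmic replicate 2 and 36 without arsenite cytoplasmic replicate 3.

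ADAM10, a membrane protease that sheds cell surface proteins, fell furthest, from 110, 156 and 138 CPM in mock cytoplasm to 18, 26.7 and 25 after arsenite (-2.42 ± 0.21, limma adjusted p = 1.1e-08). LAMP2, a lysosomal membrane protein, fell from 124, 196 and 181 to 26.7, 42.6 and 24.3 (-2.35 ± 0.22, limma adjusted p = 3.46e-08). The groups of both genes lay far apart. TMEM30A, a subunit of phospholipid flippases, C5, a complement component, ITGAV and SLC30A7 fell by 2.26, 1.92, 1.91 and 1.80 on the log2 scale. Relative to 3'UTR tags these 6 were lower by 1.02 to 1.66.

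The 2 sums that rose in the cytoplasm were those of PHF3, which binds RNA polymerase II, and INTS6. PHF3 went from 19.1, 12.2 and 24.3 CPM to 39.0, 27.3 and 40.3 (0.89 ± 0.25, limma adjusted p = 0.0115). INTS6 went from 17.0, 27.5 and 31.6 to 44.8, 41.5 and 34.8 (0.66 ± 0.23, limma adjusted p = 0.0449). Neither gene's groups overlapped, and the adjusted p rose to 0.127 and 0.218 under other settings. Of the PHF3 peaks 12 of 29 lie within EYS, and of the INTS6 peaks 7 of 38 within SERPINE3, whose strands were not compared.

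In the nucleus arsenite raised 61 of the 127 sums and lowered 1. Of 6001 genes 20% passed, 19.2% higher and 0.767% lower, and the median log2 difference was 0.59 over members and 0.39 over all genes. With 3'UTR tags as the scale, 12 were higher and 17 lower, where 3.9% and 2.9% of all genes passed (6.8% in all). The count of 62 was 38 without arsenite nuclear replicate 1 and 35 without arsenite nuclear replicate 2. DDX6 rose most, from 18.9, 30.0 and 23.2 to 121, 134 and 145 CPM (2.38 ± 0.18, limma adjusted p = 1.89e-05). CBX5, the heterochromatin protein HP1 alpha, rose from 43.7, 47.3 and 37.7 to 163, 155 and 144 (1.79 ± 0.14, limma adjusted p = 2.59e-05). ACSL4 (a long-chain acyl-CoA synthetase), ZC3H11A, FRK (a Src-family kinase) and POMK rose by 1.71, 1.58, 1.57 and 1.5. These 6 also rose relative to 3'UTR tags, by 0.75 to 1.65.

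SLC30A7 was the sum that fell in the nucleus, from 86.0, 62.7 and 60.8 CPM to 34.4, 27.2 and 33.8 (-1.07 ± 0.18, limma adjusted p = 0.00217). Its mock and arsenite libraries did not overlap in either fraction. Called sums with no overlap between groups numbered 112, 54, 57 and 61 in the 4 comparisons in the order given, where 56.0%, 13.9%, 21.5% and 20% of all genes met both conditions. The 4 comparisons share libraries in pairs.

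The change with arsenite differed between the fractions for 92 of the 127 members, all with a more positive change in the nucleus (limma interaction, adjusted p under 0.05). Of 7282 genes 28.9% passed, 28.6% in that direction and 0.22% in the other. The median interaction was 1.27 over members and 0.63 over all genes. Against 3'UTR tags 22 passed, 3 higher and 19 lower, where 1.06% and 1.37% of all genes did (2.43% in all), and the medians were -0.19 and -0.03. TMEM30A had the largest interaction (2.95 ± 0.36, limma adjusted p = 3.96e-09). Its CPM were 68.1, 81.5 and 98.1 in mock cytoplasm, 10.8, 19.3 and 16.7 in arsenite cytoplasm, 10.2, 13.6 and 8.69 in mock nucleus and 20, 26.4 and 12.1 in arsenite nucleus. ATL3, a GTPase of endoplasmic reticulum tubules, followed PDLIM5, a PDZ and LIM domain protein (2.50), and ZC3H11A (2.27), with 2.26 ± 0.23 (limma adjusted p = 3.52e-11). Relative to 3'UTR tags TMEM30A and ATL3 passed (adjusted p = 0.0137 and 0.0349 by limma), and PDLIM5 and ZC3H11A did not (0.18 and 0.0506).

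**Figure D2:**
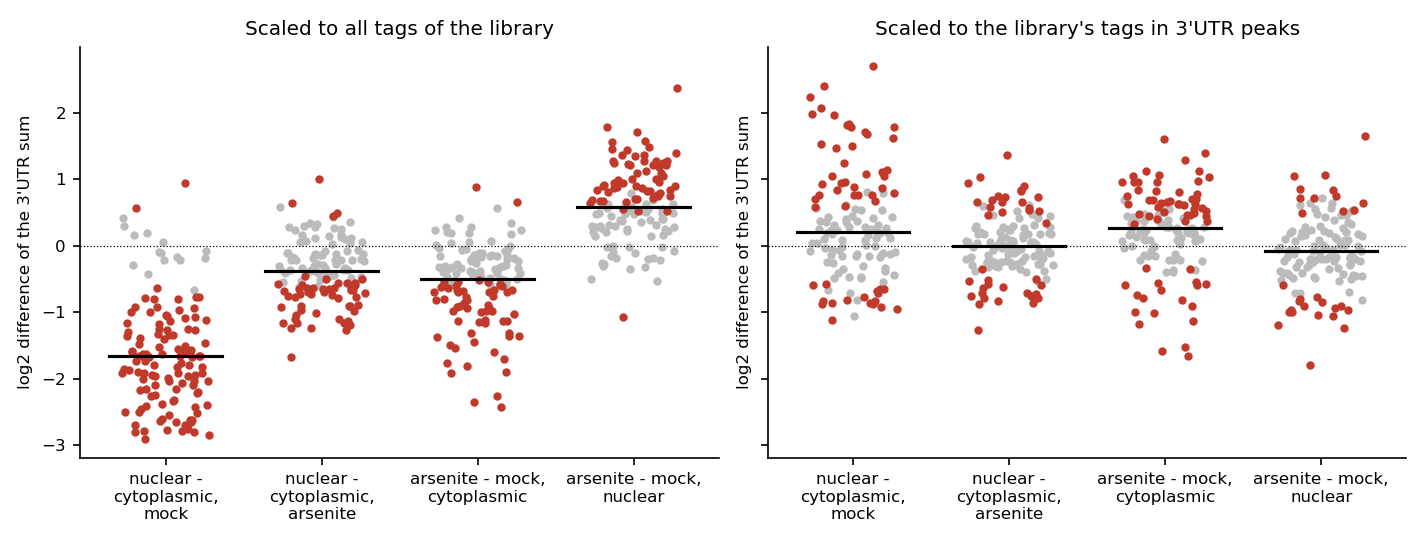
Each point is the log2 difference of a member's summed 3'UTR peaks in one of 4 comparisons, scaled to all library tags (left) or to 3'UTR tags (right), with limma adjusted p under 0.05 in red and a line at the median. On the left 110 of 127 are called lower in the mock nucleus and 61 higher in the nucleus after arsenite, and on the right 37 higher and 17 lower, and 12 higher and 17 lower.

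Of the gene lists drawn up for HuR and liver, with earlier results of these data known, 3 had members here. No gene of the lists of short-lived AU-rich HuR targets (40 genes), cell cycle regulators and ubiquitin ligases (40) or hepatocyte plasma proteins (26) had 20 peaks. Receptors, transporters and secretory pathway genes gave 6 of 82 (CANX, ITGAV, LAMP2, LIFR, SLC30A7, SLC38A1). All 6 were lower in the mock nucleus than in the mock cytoplasm, with a median of -2.48 against -1.66 over members, and 2 of them passed relative to 3'UTR tags, both lower, where 56.0% and 4.5% of all genes were called lower. All 6 fell in the cytoplasm with arsenite, with a median of -1.76 against -0.50 over members, and 5 of them fell relative to 3'UTR tags too (median -0.96). Of all genes 21.2% fell, and 7.03% relative to 3'UTR tags. In the nucleus 1 of the 6 fell with arsenite and none rose (median -0.11 against 0.59), where 0.767% and 19.2% of all genes did, and 3 of them fell relative to 3'UTR tags, where 2.9% of all genes did.

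Factors that bind AU-rich elements or act in RNA decay gave 7 of 42 (AGO2, AGO3, G3BP1, MSI2, QKI, TIAL1, TNRC6B). In mock cells 6 were lower in the nucleus (median -1.63), in the cytoplasm 3 fell with arsenite (median -0.49), and in the nucleus 5 rose (median 0.70), where the medians over all members were -1.66, -0.50 and 0.59 and the calls in those directions 110, 57 and 61 of 127. The medians over all genes were -0.98, -0.30 and 0.39, and 56.0%, 21.2% and 19.2% of all genes passed in those directions. Relative to 3'UTR tags 1 was higher and 1 lower in the mock nucleus, 3 rose and 1 fell in the cytoplasm with arsenite, and 2 rose in the nucleus. On that scale 6.37% and 4.5%, 12.3% and 7.03%, and 3.9% of all genes passed. G3BP1, the core stress granule protein, had log2 differences of -2.66, -1.14 and 0.96 in these comparisons, and TIAL1, another stress granule protein, -0.08, -0.23 and -0.08, none of which passed. Relative to 3'UTR tags TIAL1 was higher in the mock nucleus (1.80, limma adjusted p = 0.00024) and rose in the cytoplasm (0.53, limma adjusted p = 0.0279).

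Transcription and chromatin regulators gave 8 of 66 (ARID1B, HMGA2, MDM4, NFAT5, NFIA, SMAD4, SP3, ZBTB20). All 8 were lower in the mock nucleus (median -1.37), as were 110 of the 127 members (median -1.66), while relative to 3'UTR tags 4 were higher and none lower (median 0.52). In the cytoplasm 4 fell with arsenite (median -0.54), and relative to 3'UTR tags 3 rose and none fell. In the nucleus 3 rose (median 0.56), and relative to 3'UTR tags 1 rose and 1 fell. Of all genes 56.0% were lower in the mock nucleus, 21.2% fell in the cytoplasm and 19.2% rose in the nucleus, and relative to 3'UTR tags 6.37% were higher in the mock nucleus, 12.3% rose in the cytoplasm, and 3.9% rose and 2.9% fell in the nucleus.

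Single peaks were tested next, with adjustment over all peaks of the table. In mock cells 2389 of the 3124 member peaks had a tag in at least 3 of the 6 libraries, and 346 were lower and 8 higher in the nucleus, where 13.1% and 0.123% of all 3'UTR peaks tested passed in those directions (13.2% in all). At least 2 peaks were called in 80 genes. In 77 of these all called peaks were lower, in none were all higher, and MKLN1, MSI2 and QKI had called peaks in both directions. Of the 2881 3'UTR peaks called over all genes 2854 were lower, so a shared direction is not called particular to the members. CANX, the endoplasmic reticulum chaperone calnexin, had the most called peaks, 13, all lower in the nucleus. This common direction depended on the scale. Scaled to 3'UTR tags, 134 member peaks were higher and 68 lower, where 4.22% and 2.98% of all 3'UTR peaks passed (7.2% in all), and of 53 genes with at least 2 called peaks 13 had all lower, 27 all higher and 13 both directions. The count of 354 was 304 without mock nuclear replicate 1, 39 and 52 without mock nuclear replicates 2 and 3, and 36, 0 and 7 without mock cytoplasmic replicates 1, 2 and 3.

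Fewer peaks passed in the other comparisons. Between the fractions after arsenite 23 member peaks were lower and 3 higher in the nucleus (0.767% and 0.0741% of all 3'UTR peaks, 0.841% in all), and the 4 genes with at least 2 called peaks had them all lower, PTBP3 with 3. In the cytoplasm 80 peaks fell with arsenite and 2 rose (2.69% and 0.112% of all 3'UTR peaks, 2.8% in all), and the 17 genes with at least 2 called peaks had them all lower, CANX with 9. In the nucleus 16 rose and 1 fell (1.19% and 0.0564% of all 3'UTR peaks, 1.25% in all), with 3 rising peaks in MSI2, a musashi RNA-binding protein, and peaks in both directions in QKI. Of all 3'UTR peaks called, 207 of 227, 768 of 800 and 233 of 244 had the commoner direction in these comparisons.

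On the scale of 3'UTR tags the calls were 8 higher and 13 lower between the arsenite fractions (0.508% and 0.537% of all 3'UTR peaks, 1.05% in all), 93 and 57 with arsenite in the cytoplasm (2.48% and 1.96%, 4.44% in all) and 7 and 13 with arsenite in the nucleus (0.681% and 0.487%, 1.17% in all). In the cytoplasm 11 of 41 genes with at least 2 called peaks then had both directions.

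edgeR called 60, 160 and 43 member peaks in these 3 comparisons in place of 26, 82 and 17. A pseudocount 4 times smaller gave 10, 130 and 6, and 216 in place of 354 for the mock fractions. Such counts show the dependence on the method, and none is called particular to the members. These counts also changed with 1 library left out. After arsenite the 26 calls between fractions were 0 or 1 without any of the 6 libraries. In the cytoplasm the 82 calls were 8, 0 and 1 without mock replicates 1, 2 and 3, and 122, 155 and 126 without arsenite replicates 1, 2 and 3. In the nucleus the 17 calls were 0, 4 and 5 without mock replicates 1, 2 and 3, and 0, 0 and 81 without arsenite replicates 1, 2 and 3.

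The signs of all well-covered peaks were also counted, with no threshold on p. Peaks with a mean of at least 5 CPM were taken in genes with at least 3 of them. In mock cells 308 of 315 such peaks (97.8%) were lower in the nucleus, with all peaks lower in 59 of 65 genes and mixed signs in 6. After arsenite 156 of 224 (69.6%) were lower in the nucleus, with all lower in 14 of 46 genes, all higher in 2 and mixed signs in 30. In the cytoplasm 338 of 439 (77.0%) were lower after arsenite, with mixed signs in 54 of 79 genes. In the nucleus 15 of 104 (14.4%) were lower after arsenite, with all higher in 18 of 27 genes and mixed signs in 9. In 3'UTRs with fewer than 20 peaks, counted alike, the peaks lower were 97.6%, 70.4%, 81.0% and 19% in the 4 comparisons in this order, and the genes with mixed signs 7.34%, 53.1%, 51.7% and 37.5%, against 9.23%, 65.2%, 68.4% and 33.3% of members. Scaled to 3'UTR tags, 66.7%, 53.1%, 51.0% and 36.5% of the member peaks were lower and 61.5%, 73.9%, 87.3% and 74.1% of the members had mixed signs, against 52.1%, 57.7%, 77.2% and 60.6% of the other genes. A gene with more peaks has more chances of a mixed sign, and the difference between members and other genes was not tested.

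Sharing a sign did not mean sharing a size. The range of log2 differences within a gene had a median of 1.33 between the mock fractions, 1.11 between the arsenite fractions, 1.80 with arsenite in the cytoplasm and 1.21 with arsenite in the nucleus. QKI had the widest range between the mock fractions (5.10) and in the nucleus with arsenite (3.57), WSB1 between the arsenite fractions (2.61), and PROX1, a hepatic transcription factor, in the cytoplasm with arsenite (3.51).

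**Figure D3:**
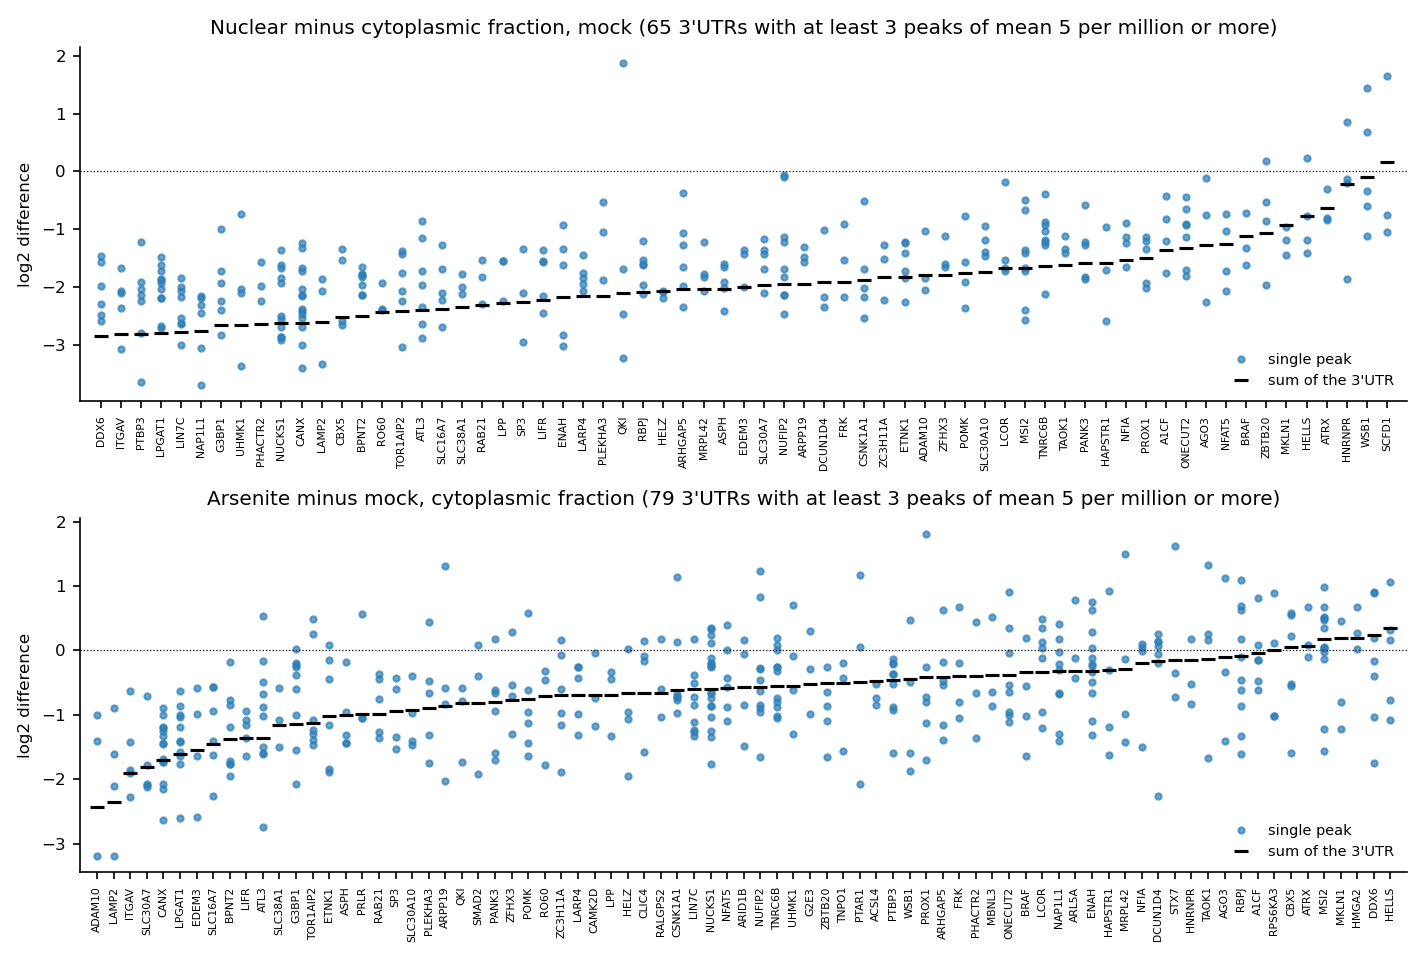
Each dot is a peak with a mean of at least 5 CPM, placed above its gene, and the black bar is the gene's summed log2 difference, by which genes are ordered. Nearly all dots of 65 genes lie below 0 for the mock nuclear against cytoplasmic fraction (top, 308 of 315), while 54 of 79 genes have dots on both sides of 0 for arsenite against mock in the cytoplasm (bottom), and on the scale of 3'UTR tags, not drawn, 40 of the 65 and 69 of the 79 have both signs.

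How far a peak followed its gene was described by splitting the variance of log2 differences, over peaks with a mean of at least 10 CPM, into a part between and a part within genes. The part between genes was 24.8% for the mock fractions (129 peaks of 44 genes), 50.7% for the arsenite fractions (96 of 33), 19.3% for arsenite in the cytoplasm (188 of 56) and 34.0% for arsenite in the nucleus (40 of 15). Over the 9 pairs of single libraries it had an SD of 7.19, 3.80, 5.16 and 10.6 points. In 3'UTRs with fewer than 20 peaks it was 45.9%, 58.0%, 17.9% and 43.3%. The share moved with the minimum level, to 52.4%, 63.6%, 39.1% and 82.1% at 20 CPM, and to 23.1% at 2 CPM for the arsenite fractions. The SD within a gene was 0.67, 0.49, 0.79 and 0.75 log2 units, above the typical standard error of a peak's difference in each comparison (0.32, 0.25, 0.28 and 0.29). Peaks of one gene differed from each other by a median of 0.58, 0.49, 0.68 and 0.54, and peaks of different genes by 0.71, 0.63, 0.81 and 0.77, where a pair counts once and pairs share peaks. Within a gene the median for pairs under 200 nt apart was 0.69 between the mock fractions and 0.56 with arsenite in the cytoplasm, and for pairs 1000 to 5000 nt apart 0.54 and 0.71, so distance gave no common order.

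A difference between the peaks of one gene was tested with limma's diffSplice at the same minimum of 10 CPM, adjusted over all genes with at least 2 such peaks. It was called in 39 of 56 members for arsenite in the cytoplasm, where 59.0% of all genes tested passed, in 5 of 44 for the mock fractions (10.5%), in 7 of 33 for the arsenite fractions (14.6%) and in 4 of 15 for arsenite in the nucleus (25.2%). No such count is called particular to the members. A minimum of 20 CPM gave 14, 3, 3 and 0, in the same order, and a pseudocount 4 times larger gave 17 for the mock fractions. The 5 for the mock fractions were 2, 1 and 1 without mock cytoplasmic replicates 1, 2 and 3. The 7 for the arsenite fractions were 3 without arsenite cytoplasmic replicate 1 or 3. The 4 for arsenite in the nucleus were 8 without mock nuclear replicate 1 and 2 without arsenite nuclear replicate 1.

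QKI, an RNA-binding protein of splicing and mRNA stability, gave the smallest adjusted p for the mock fractions (1.07e-11 by limma diffSplice over 4 peaks). Its peak at chr6:163570680-163570699 (GRCh38), labelled as 3'UTR, coding sequence and intron, had 23.3, 20 and 24.1 CPM in the mock nucleus and 5.32, 5.09 and 3.16 in the mock cytoplasm (log2 difference 1.87 ± 0.28, limma adjusted p = 0.00709). Only 1150 nt downstream, the peak at chr6:163571830-163571849 had 5.83, 9.09 and 5.79 in the nucleus and 64.9, 87.6 and 99.1 in the cytoplasm (-3.23 ± 0.27, limma adjusted p = 0.000409). The libraries of the fractions did not overlap at either peak, and the directions were opposite. With arsenite the first peak fell in the nucleus to 2.40, 2.40 and 2.60 (-2.38 ± 0.26, limma adjusted p = 0.00308), while the peak 231 nt downstream of it, at chr6:163570911-163570930, rose from 37.9, 25.5 and 31.9 to 88.1, 76.8 and 61.5 (1.19 ± 0.20, limma adjusted p = 0.0423).

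DDX6 divided in the cytoplasm. Its peak at chr11:118751408-118751427 went from 40.4, 76.4 and 72.8 CPM in mock to 118, 114 and 115 after arsenite, with no overlap (0.90 ± 0.24, limma adjusted p = 0.0788 for the peak alone). At chr11:118749330-118749349, 2078 nt nearer the gene's 3' end, it fell from 18.1, 27.5 and 19 to 5.78, 5.12 and 3.48 (-1.74 ± 0.28, limma adjusted p = 0.0233). The test within the gene gave an adjusted p of 2.11e-10 by limma diffSplice, while the DDX6 sum in the cytoplasm differed by 0.24 with arsenite (limma adjusted p = 0.382), and by 1.03 relative to 3'UTR tags (limma adjusted p = 7.28e-11).

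MRPL42 had opposite directions 622 nt apart in the same comparison. The peak at chr12:93503397-93503416 went from 10.6, 27.5 and 7.38 CPM to 49.1, 38.1 and 37.6, with no overlap (1.49 ± 0.38, limma adjusted p = 0.0684 for the peak alone). The peak at chr12:93504019-93504038 fell from 36.2, 48.9 and 40.1 to 10.8, 18.2 and 13.9 (-1.42 ± 0.25, limma adjusted p = 0.0381). The test within the gene gave 2.11e-10 by limma diffSplice.

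ATL3 had the smallest adjusted p for arsenite in the cytoplasm (1.25e-11 by limma diffSplice over 6 peaks). At chr11:63628301-63628320 it fell from 77.6, 107 and 79.1 to 14.4, 13.1 and 6.96 CPM (-2.74 ± 0.28, limma adjusted p = 0.00381). At chr11:63626370-63626389, 1931 nt nearer the 3' end, it had 11.7, 21.4 and 11.6 in mock and 25.3, 19.3 and 20.9 after arsenite, which overlap (0.53 ± 0.28, limma adjusted p = 0.392).

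WSB1, a substrate receptor of a ubiquitin ligase, divided between the arsenite fractions (8.97e-06 by limma diffSplice). Its peak at chr17:27307973-27307992 had 11.2, 24.0 and 23.4 CPM in the nucleus and 4.33, 4.55 and 2.78 in the cytoplasm after arsenite (1.77 ± 0.31, limma adjusted p = 0.025). The peak 843 nt upstream had 8.81, 11.2 and 12.1 in the nucleus and 18, 23.3 and 21.6 in the cytoplasm, the opposite order without overlap (-0.84 ± 0.25, limma adjusted p = 0.226). NAP1L1, a nucleosome assembly protein, and HAPSTR1 also passed in that comparison (adjusted p = 0.00423 and 0.0208 by limma diffSplice). HAPSTR1 did not pass with peaks from 2 CPM upwards (adjusted p = 0.319 by limma diffSplice). In the nucleus with arsenite ZC3H11A, ATL3 and A1CF passed beside QKI (0.000992, 0.00415 and 0.0118 by limma diffSplice), and A1CF did not pass with peaks from 2 CPM upwards (0.284). These ZC3H11A peaks, 51369 and 52283 nt before the gene's 3' end and labelled 5'UTR as well as 3'UTR, lie within ZBED6. One of them rose by 2.34 while another, 914 nt away, differed by 0.44. Between the mock fractions WSB1, ATL3 and PTBP3 passed beside QKI (0.00851, 0.00885 and 0.0193 by limma diffSplice), with edgeR giving 0.18 for PTBP3.

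**Figure D4:**
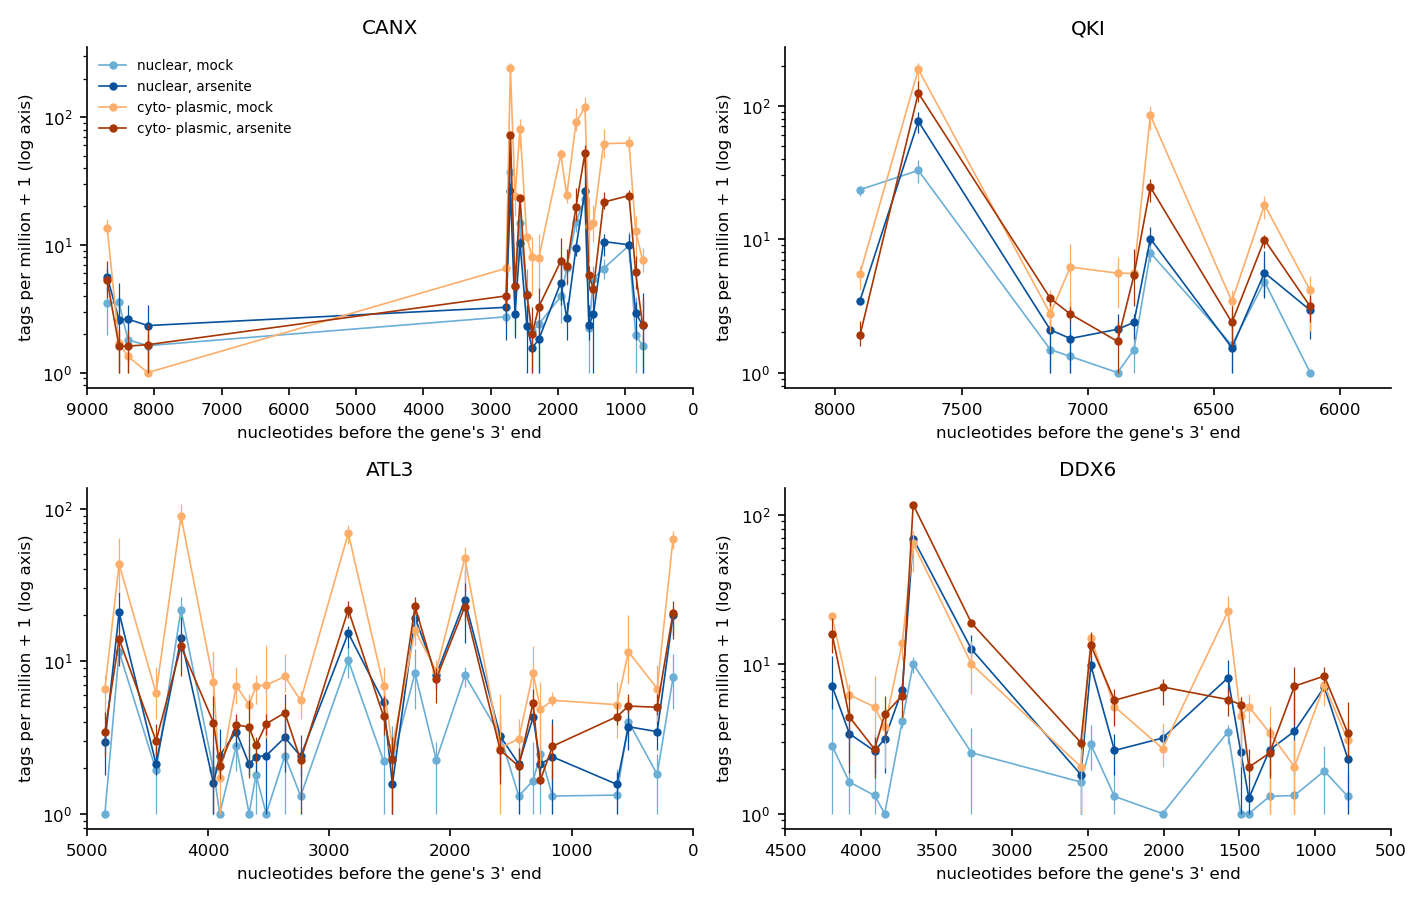
CPM plus 1 on a log axis at the peaks of CANX, QKI, ATL3 and DDX6 against nucleotides before the gene's 3' end, with the mean of 3 libraries as points, the lowest and highest library as bars and a colour for each fraction and treatment. At the 12 CANX peaks with a mean of at least 5 CPM over the 12 libraries the mock cytoplasm lies above the mock nucleus and the arsenite cytoplasm, while at QKI the mock nucleus and cytoplasm change order between peaks 1150 nt apart.

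CANX had 1 sign in 3 of the 4 comparisons at the peaks that reached a minimum level in each. Of its peaks with a mean of at least 5 CPM in the libraries compared, all 14 were lower in the mock nucleus (log2 differences -3.39 to -1.25), all 14 lower with arsenite in the cytoplasm (-2.63 to -0.90) and all 7 lower in the nucleus after arsenite (-1.42 to -0.48). With arsenite in the nucleus 3 of 6 were lower (-0.61 to 0.60), and none passed. At the 12 CANX peaks that reached this mean over all fraction libraries, the arsenite fractions had both signs (-1.42 to 0.10). CANX peaks still differed among themselves with arsenite in the cytoplasm (adjusted p = 0.019 by limma diffSplice). Among genes with at least 10 peaks at a mean of 2 CPM or more, the smallest SD of log2 differences between the mock fractions was found in SLC30A10, a manganese transporter (0.44), ONECUT2 (0.44) and TNRC6B, a scaffold of miRNA silencing (0.46), where 42 such genes had a median of 0.64 and QKI a maximum of 1.36. With arsenite in the cytoplasm it was smallest in MFSD4B, a membrane transporter (0.27), the amino acid transporter SLC38A1 (0.33) and the ubiquitin ligase G2E3 (0.34), with a median of 0.64 over 57 genes. Between the arsenite fractions it was smallest in ATL3, the pantothenate kinase PANK3 and ZC3H11A (0.31 each), with a median of 0.45 over 32 genes. With arsenite in the nucleus WSB1, ZBTB20 and PROX1 had 0.30, 0.32 and 0.32, with a median of 0.55 over 15 genes.

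The 8 member peaks called higher in the mock nucleus all carry an intron label. They lie in NSD2 and FANCL, the 2 genes whose sums were called higher there, in TIAL1 and SCFD1, whose sums did not pass, and in QKI, SCAF11, MSI2 and MKLN1, whose sums were lower there. The NSD2 peak at chr4:1938438-1938457 had 26.2, 36.4 and 28 CPM in the mock nucleus against 7.45, 3.06 and 7.38 in the mock cytoplasm (2.02 ± 0.32, limma adjusted p = 0.00965), without overlap. The MSI2 peak at chr17:57633142-57633161, 68430 nt before the gene's 3' end, had 4.37, 6.36 and 5.79 against 1.06, 1.02 and 0 (1.40 ± 0.31, limma adjusted p = 0.0421), while 7 other MSI2 peaks were called lower. With arsenite in the cytoplasm the 2 peaks that rose were in PROX1, from 1.06, 0 and 3.16 to 7.94, 11.4 and 10.4 (limma adjusted p = 0.0484), and HAPSTR1, from 1.06, 0 and 0 to 5.78, 6.25 and 11.1 (limma adjusted p = 0.0264).

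Peaks were also summed within and beyond 10000 nt of the gene's 3' end, a split chosen after the data had been seen. It could be made in 80 members, and the difference between the near and the far sum was tested as above. For the mock fractions it was called in 8 of 30 members (31.2% of all genes tested passed), for the arsenite fractions in 2 of 28 (8.16%), for arsenite in the cytoplasm in 8 of 31 (32.7%) and for arsenite in the nucleus in 1 of 22 (17.6%).

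SCAF11, a splicing-associated protein, had the smallest adjusted p for the mock fractions (1.37e-06 by limma diffSplice). Its 14 near peaks summed to 4.37, 2.73 and 3.86 CPM in the mock nucleus and 24.5, 29.5 and 29.5 in the mock cytoplasm, a log2 difference of -2.35. Its 8 far peaks, 25957 to 42147 nt before the 3' end and all intron-labelled, summed to 16.0, 16.4 and 8.69 in the nucleus and 9.57, 5.09 and 5.27 in the cytoplasm, a log2 difference of 0.83. The far sums of the fractions overlap and the near sums do not.

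The splicing factor SF3B1 of the U2 snRNP had the same pattern, with 4.37, 5.46 and 2.90 CPM at 6 near peaks in the nucleus against 11.7, 23.4 and 26.4 in the cytoplasm. At its 14 far peaks it had 23.3, 20.9 and 17.4 in the nucleus against 10.6, 8.15 and 13.7 (log2 differences -1.76 near and 0.81 far, adjusted p = 1.86e-05 by limma diffSplice). Neither sum overlapped between fractions. ARID1B of the BAF chromatin remodelling complex (-1.54 near, 0.73 far), the splicing regulator SREK1 (-0.76 near, 1.20 far) and the chromatin protein HMGA2 (-2.24 near, -0.10 far) also had the more positive difference at the far peaks. Far peaks of these 5 genes all carry the intron label, and so do some of their near peaks. These are 13 of 14 in SCAF11, 6 of 6 in SF3B1, 7 of 12 in SREK1, 4 of 9 in ARID1B and 2 of 17 in HMGA2.

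In 3 genes the far peaks were the more cytoplasmic. STX7, an endosomal syntaxin with no intron-labelled peak, had 11.7, 14.5 and 24.1 CPM at 8 near peaks in the mock nucleus and 22.3, 15.3 and 12.7 in the mock cytoplasm, which overlap. At its 16 far peaks, 10034 to 14802 nt before the 3' end, it had 4.37, 19.1 and 10.6 in the nucleus and 26.6, 42.8 and 58.0 in the cytoplasm (-0.02 near, -1.81 far, adjusted p = 0.00721 by limma diffSplice). HAPSTR1 (-0.57 near, -1.82 far) and the actin regulator ENAH (-1.94 near, -3.22 far) had the same order.

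With arsenite in the cytoplasm C5 had the largest contrast. Its 4 near peaks had 59.6, 62.1 and 51.7 CPM in mock and 4.33, 7.96 and 6.96 after arsenite, while its 16 far peaks had 13.8, 15.3 and 11.6 in mock and 13.0, 10.8 and 8.35 after arsenite (-2.81 near, -0.30 far, adjusted p = 2.47e-08 by limma diffSplice). The near sums lay far apart and the far sums overlapped. SF3B1 (-1.13 near, 0.54 far), ARID1B (-0.82, 0.27), the Ras GTPase-activating protein NF1 (-0.59, 0.49), ZNF207 (-0.02, 0.99) and the chromatin helicase HELLS (-0.48, 0.56) also had the more negative difference near the 3' end, and STX7 (0.67, -0.62) and TMEM106B (-0.97, -2.19) the opposite. In the nucleus SREK1 passed (0.15 near, -1.16 far, adjusted p = 0.0229 by limma diffSplice). Over the 30 members tested the median log2 difference between the mock fractions was -1.81 near and -1.48 far, and over the 28 tested after arsenite -0.25 and -0.33. By single peak the mock median was -1.21 within 1000 nt and -1.02 beyond 10000 nt, where 50.5% of the peaks had an intron label against 25.4%. It was -1.19 at peaks beyond 10000 nt without an intron label and -1.20 at peaks within 10000 nt with one.

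**Figure D5:**
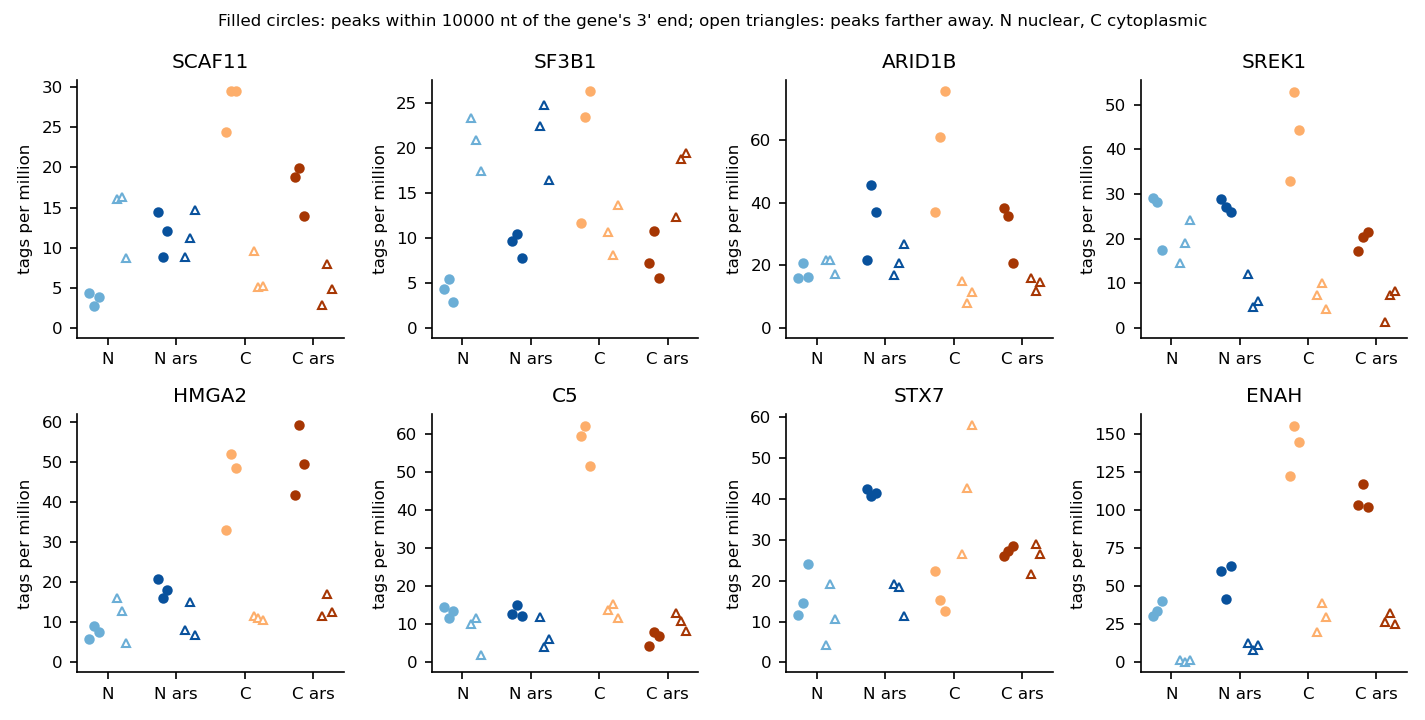
Summed CPM of peaks within 10000 nt of the gene's 3' end (filled circles) and farther away (open triangles) for 8 genes, with a point for each of the 3 libraries of the nuclear (N) and cytoplasmic (C) mock and arsenite groups. In SCAF11 and SF3B1 the circles are higher in the mock cytoplasm and the triangles in the mock nucleus or level with it, while in STX7 the triangles are the ones higher in the mock cytoplasm.

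The enriched libraries were too shallow for single peaks, so the sums were compared, with the library set as a covariate. In 5 groups a pair of libraries did not detectably differ beyond the sampling noise of their tags (permutation p of a chi-square 0.059 to 0.79). Pairs of another set, thinned to the same depth, did. Each comparison was therefore also made with the like pairs of these 5 groups counted as 1 sample. After arsenite 22 of 119 members tested were higher in the APEX-G3BP1 than in the APEX-NES enriched libraries and none lower, where 12% of 1213 genes passed (limma). With the pairs counted once there were 14, a count not called particular to the members. Scaled to 3'UTR tags there were none, with 5 members at an unadjusted p under 0.05, and 0.0824% of all genes passed. The count was 0 without APEX-G3BP1 arsenite replicate 4 or 5, 4, 11 and 12 without APEX-NES arsenite replicates 2, 3 and 4, and edgeR gave 23, with 14.6% of all genes. The members' level was 13477 against 5406 CPM in the library set JL0388 and 3630 against 508 in JL1024, with like libraries counted once. Library set JL0361 holds no APEX-NES library, so its 3 arsenite APEX-G3BP1 enriched libraries did not enter.

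PHACTR2, a phosphatase and actin regulator, had 76.9 to 293 CPM in the 4 APEX-G3BP1 libraries (median 136, 3 to 26 tags) and 0 to 39.4 in the 4 APEX-NES libraries (4.19 ± 0.85, limma adjusted p = 0.013). NF1 had 25.6 to 178 (2 to 6 tags), with 3 of 4 APEX-NES libraries at 0 (limma adjusted p = 0.0222). LAMP2 had 14.9 to 45.1 (1 to 4 tags), with all 4 APEX-NES libraries at 0 (limma adjusted p = 0.0228). These values rest on few tags, and none of the 3 passed without APEX-G3BP1 replicate 4 or 5.

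No member passed limma's test between APEX-NLS and APEX-NES enriched libraries in mock cells (9 of 100 at an unadjusted p under 0.05, 0 by edgeR, 1 with like pairs counted once) or after arsenite (5 of 120, 0 by edgeR). None passed between APEX-G3BP1 and APEX-NES in mock cells (6 of 85, 0 by edgeR), and 29 did, all higher in APEX-G3BP1, without libraries under 2000 tags in peaks, a fit in which 28.2% of 2099 genes passed. None passed between arsenite and mock in the APEX-G3BP1 enriched libraries (32 of 119), where edgeR called 10 of 119 higher after arsenite, and 8.75% of all genes. No gene passed limma's test in these 4 comparisons, so 0.0% stands beside each 0.

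The inputs gave a value for each line, treatment and library set without a test. The members' level was higher after arsenite in all 3 lines of set JL0388, at 6119 against 4113 CPM in APEX-NLS, 5910 against 4037 in APEX-NES and 6175 against 3588 in APEX-G3BP1. In set JL1024 it was 1504 against 993, 1965 against 1215 and 2919 against 979. These are single libraries, of which the APEX-G3BP1 mock library of JL1024 held 22 member tags. In set JL0361, which holds APEX-G3BP1 alone, 3 arsenite libraries were at 4105 to 6255 CPM (70 to 7392 member tags) and 2 mock libraries at 2633 to 3017 (52 and 636 tags). The members' percent of 3'UTR tags was 12.04 after arsenite and 12.3 in mock for APEX-NLS, 12.7 and 12.5 for APEX-NES and 12.7 and 12.4 for APEX-G3BP1 in JL0388, and 9.61 to 10.0 and 9.72 to 10.0 in JL0361. In JL1024 it was 9.23 after arsenite and 9.55 in mock for APEX-NLS, 11.1 and 8.63 for APEX-NES (241 and 147 member tags) and 10.1 and 11 for APEX-G3BP1.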

How the data were processed

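Values are the authors' deposited signal, the tags in a peak divided by a total of its library, as the values themselves show: whole tags were recovered for 100.0% of values in each library (relative tolerance 0.0001). The submitters' processing notes name Bowtie2, SAMtools, bedtools, HOMER and GRCh38.p14, without versions for the tools. Peak calling was on the combined libraries, as the name and columns of the table show. After 8257 repeated lines had been dropped, 387214 peaks of 20 nt remained, and coordinates are printed counted from 1. Signals were converted to log2(CPM + 2.28) and tested with limma 3.58.1 (R 4.3.3), whose trended eBayes moderates the spread, over features whose libraries with a tag were no fewer than the smaller group's size. Adjusted p-values are Benjamini-Hochberg over all genes or peaks tested. edgeR 4.0.16 (quasi-likelihood) on the recovered tags called 3265 genes for the mock fractions where limma called 3482. Distances use RefSeq genes, to which all 127 members matched. Pairs of like libraries were found by a chi-square of their tags.

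Named genes are the 10 with the most peaks, in each fraction comparison the 6 largest called differences without overlap in each direction (4 for the interaction), the 4 smallest adjusted p for differences within a gene with their extreme peaks, the 3 most uniform genes with at least 10 peaks, the 3 largest called differences in enriched libraries and examples from the gene lists. A gene that this rule names for differences within a gene is not reported here. Other peaks and the near and far genes named were chosen after their values were seen, as were the minimum of 2 CPM for uniform genes and the sign counts in other genes or scaled to 3'UTR tags. The members and lists were chosen with earlier results of these data known. Replicate numbers were not used to pair the libraries in the main fits. Deviations of same-numbered fraction libraries correlated at -0.009 to 0.037, which cannot settle whether they came from one culture, since counting noise also lowers it. The alternatives were another pseudocount, no filter, scaling to 3'UTR or all peak tags, edgeR, a replicate block and leaving out each library. Further ones were other minimum levels, all 12 fraction libraries in one fit, like pairs counted once and libraries under 2000 tags left out. Peaks with centres at least 50 nt apart were another. Intervals from tags cover counting error only.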

Additional observations from a re-analysis of the deposited data

Results flagged for a closer look

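Intron-labelled peaks held 18.2% of member tags in APEX-G3BP1 enriched mock replicate 1, where the nearest of the other 5 libraries had 35.9%. That library held 11 member tags. They held 22.7% in APEX-G3BP1 input mock replicate 4, where the nearest of the other 3 had 44.2%, from 22 member tags. The members made up 12.7% of 3'UTR tags in APEX-G3BP1 input arsenite replicate 4, where the nearest of the other 4 libraries had 10.1%, from 5120 member tags. It is the only library of set JL0388 in its group, and the other inputs of that set had 12.04% to 12.7%. These 3 libraries stood apart from their groups by Dixon's criterion among 24 groups examined, and chance alone marks about 1 in 20 groups.

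The change with arsenite differed between the nuclear and cytoplasmic fractions by the interaction test for 92 members, where 28.9% of all genes passed, and for 22 relative to 3'UTR tags, where 2.43% did. All 92 had the more positive change in the nucleus, and 19 of the 22 the less positive one.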

How the results depend on the processing

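For the sums of single genes printed in the text, mostly the largest called differences, 654 comparisons with an alternative setting kept direction and call, 61 kept direction and lost the call, 2 gained it and 9 reversed. Scaling to 3'UTR tags turned ZBTB20 to 0.89 (mock fractions) and 0.28 (arsenite in the cytoplasm) and TIAL1, which had not passed, to 1.80 and 0.53. TIAL1 was 0.046 for the mock fractions scaled to all peak tags, and with a library left out -0.25 to 0.024 there and -0.23 to 0.16 for arsenite in the nucleus. Over all 127 members scaling to 3'UTR tags changed the sign of 60 of 112 called sums for the mock fractions (20 of them called in the opposite direction), 0 of 54 for the arsenite fractions, 20 of 59 and 10 of 62 for arsenite in the cytoplasm and nucleus and 46 of 92 for the interaction, and no other setting changed the sign of a called sum in these 5 comparisons. Of the counts and shares, 222 stayed within the limits set (1.5 times for a count, 1 SD for a share) and 92 did not. The order below is mock fractions, arsenite fractions, arsenite in the cytoplasm and arsenite in the nucleus, and the cause of a change was not tested.

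Called sums were 112, 54, 59 and 62, and 92 for the interaction. Scaled to 3'UTR tags they were 54, 39, 64, 29 and 22. With a library left out they ranged from 106 to 111, 22 to 46, 31 to 73, 35 to 57 and 84 to 94. For APEX-G3BP1 against APEX-NES after arsenite (22), a pseudocount 4 times smaller gave 7, no filter 14, like pairs counted once 14, scaling to 3'UTR or all peak tags 0, and leaving out a library 0 to 27. In mock cells (0) that comparison gave 29 without libraries under 2000 tags and 0 with any library left out. For APEX-NLS against APEX-NES in mock cells (0) like pairs counted once gave 1, and leaving out a library 0. For arsenite in APEX-G3BP1 enriched libraries (0) edgeR gave 10 and leaving out a library 0 to 9.

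Called member peaks were 354, 26, 82 and 17. edgeR gave 60, 160 and 43 for the last 3, and the smaller pseudocount 216, 10, 130 and 6. On the scale of 3'UTR tags 202 (134 higher, 68 lower) were called for the mock fractions and 150 (93 higher, 57 lower) for arsenite in the cytoplasm. With a library left out they ranged from 0 to 304, 0 to 1, 0 to 155 and 0 to 81.

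Genes with differences among their peaks were 5, 7, 39 and 4 at a mean of 10 CPM. A minimum of 5 CPM gave 18, 15, 68 and 9, of 20 CPM 3, 3, 14 and 0, and of 2 CPM 51, 23, 86 and 16 (edgeR 26, 22, 84 and 9), where other numbers of genes are tested. A pseudocount 4 times larger gave 17 for the mock fractions. With a library left out they ranged from 1 to 5, 3 to 9, 29 to 40 and 2 to 8. The share of variance between genes was 24.8%, 50.7%, 19.3% and 34.0%. It was 32.1% and 31.6% at 5 CPM for the first 2, 52.4%, 63.6%, 39.1% and 82.1% at 20 CPM, 23.1% at 2 CPM for the arsenite fractions and 16.5% with the larger pseudocount for the mock fractions. With a library left out it ranged from 19.1% to 28%, 44.1% to 59.4%, 16.4% to 30.9% and 28.2% to 40.8%.

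Whether the replicate numbers pair the libraries cannot be told from their correlation. A fit with a replicate block called sums numbering 111, 61, 61, 64 and 93 and peaks numbering 309, 12, 129 and 21. It called genes with differences among their peaks numbering 5, 11, 39 and 4. In enriched libraries the block gave 27 after arsenite for APEX-G3BP1 against APEX-NES and 0 elsewhere. In enriched libraries depth is low, and LAMP2 for example had 1 to 4 tags in a library.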
